A study of Mus musculus with 6 samples.

Results

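The genes described here are 9 homologues of the enzyme crystallins of other animals and soluble proteins abundant in the lens: Cryz, Cryzl1, Cryl1, Crym, Lgsn, Grifin, Aldh1a1, Aldh3a1 and Fabp5. They were taken as the non-control probes whose RefSeq accession belongs to one of these genes, which gave 11 of 39429 probes and 9 of 20659 named genes. Cryzl1 and Aldh3a1 had 2 probes each and the others had 1. RNA came from lenses of mice at 3 months of age, and no treatment other than the genotype is named in the labels. The knock-in group (3 arrays, labelled replicates 1, 2 and 4) carried the W151C substitution in βB2-crystallin, in which tryptophan at codon 151 of Crybb2 is replaced by cysteine, made with CRISPR/Cas9. The wild type group (3 arrays, replicates 1, 2 and 3) was of the same age and carried no edit named in the labels. The series calls the arrays biological replicates, but strain, sex, zygosity and the number of edited lines are not in the labels, nor whether an array held RNA of 1 animal or of several, so n counts arrays. Values of single arrays are listed below in the order knock-in 1, 2 and 4 and wild type 1, 2 and 3.

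Crystallins are the water-soluble proteins that fill lens fibre cells and give the lens its refractive power. Besides the α-, β- and γ-crystallins shared by vertebrates, several animal groups have recruited a metabolic enzyme to the lens at very high level: ζ-crystallin in guinea pigs, λ-crystallin in rabbits, μ-crystallin in kangaroos and η-crystallin in elephant shrews. The mouse keeps the genes of these enzymes without using them as bulk lens proteins. Lengsin (Lgsn), the galectin relative Grifin and the fatty acid binding protein Fabp5, in contrast, are proteins that the mouse lens itself makes in quantity.

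The RefSeq promoter table (build GRCm38.p6) matched 6 of the 9 genes, with 8 entries. The 250 bases upstream of the start site are shown for Lgsn, the 1 of the 9 genes called lower, and for Grifin, whose difference did not pass, so that the promoters of these fibre proteins can be read side by side. Both run 5′ to 3′ on the strand of the gene, and capitals mark motif matches. The Lgsn sequence lies at chr1:31176185-31176434 on the plus strand and the Grifin sequence at chr5:140565068-140565317 on the minus strand.
Lgsn: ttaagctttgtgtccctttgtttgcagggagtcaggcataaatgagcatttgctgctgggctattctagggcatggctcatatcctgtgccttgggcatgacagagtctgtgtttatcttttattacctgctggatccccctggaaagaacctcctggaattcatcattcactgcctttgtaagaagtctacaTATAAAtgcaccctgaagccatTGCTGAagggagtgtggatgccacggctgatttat
Grifin: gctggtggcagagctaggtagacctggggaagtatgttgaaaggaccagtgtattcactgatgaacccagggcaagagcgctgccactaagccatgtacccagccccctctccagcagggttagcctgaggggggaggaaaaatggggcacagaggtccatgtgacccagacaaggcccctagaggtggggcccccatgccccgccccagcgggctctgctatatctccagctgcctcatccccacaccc
A total of 5 motifs were searched on both strands: the half-site TGCTGA of MAF factors, the nuclear receptor half-site AGGTCA, the heat shock element core GAANNTTC, the antioxidant response element core TGACNNNGC and the TATA box TATAAA. Over the same 250 bases of all 32851 promoters in the table they occur in 16.1%, 14%, 6.69%, 10.2% and 12.4%, in that order. The Lgsn promoter held the TATA box at bases 194 to 199 and the MAF half-site at bases 216 to 221 of the printed run, which do not overlap. The other 7 entries, those of Cryz, Cryzl1, Cryl1, Grifin and Aldh1a1, held none of these letters in this window.

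The arrays were not equally bright. The 75th percentile of the signal over all non-control spots was between 120 and 201 intensity units on 5 arrays and 698 on wild type array 3, and signals are given below as log2 relative to that percentile. All 3 knock-in arrays shared scan 1, wild type arrays 1 and 2 shared scan 2 and wild type array 3 was scan 3, on another day. No scan held both genotypes, so scan and genotype cannot be told apart. All 11 lens fibre markers were well above background on every array, with a summed level (relative to the percentile) of 1729 to 1913 in knock-in and 1245 to 4604 in wild type lenses. The 7 lens epithelium markers summed to 55.2 to 60.4 and 32.9 to 36.4, a gap that comes from Pdpn (5.23 to 5.47 against 3.79 to 3.85, log2). The median difference of these markers was -0.45, with Pdpn called higher and Foxe3 lower. Foxe3 was well above background on 2 of the knock-in arrays, so its size is set partly against background. Of 9 retina markers, 8 were well above background on knock-in array 4 and 2 to 5 on the others. Their summed level was 18.2 on knock-in array 4, 1.71 and 1.27 on knock-in arrays 1 and 2, and 0.43 to 0.70 in wild type. Iris and ciliary pigment markers summed to 2.48 to 2.56 in knock-in and 4.34 to 5.26 in wild type lenses, mostly from Oca2, which fell, while Dct and Tyrp1 differed by 2.50 and 1.29 and did not pass. Leukocyte markers summed to 8.94 to 15.1 and 12.9 to 40.8, mostly from Itgam, which was called lower. Tyrobp was called higher, and the median difference over 4 measured markers was 0.19. Tyrobp was well above background on all knock-in arrays and on 0 wild type arrays. It was thus tested only through the group in which it is high, and its call had to lean one way. Endothelial and stromal markers summed to 9.81 to 12.1 and 13.2 to 15.6, and blood markers to 0.437 to 0.929 and 0.312 to 0.555. The retina gene Sag, an arrestin of photoreceptors, was at 1.39 (log2) on knock-in array 4 and between -5.64 and -2.63 elsewhere, and was well above background on 0 wild type arrays.

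Setting the knock-in group against the wild type group asks whether the W151C allele goes with another level of any of the 9 transcripts. Crym, a dim probe, and Cryl1 rose, Lgsn fell by 2.71 on the log2 scale, and the other 6 genes, Cryz, Cryzl1, Grifin, Aldh1a1, Aldh3a1 and Fabp5, did not pass. With limma over 12783 genes and Benjamini-Hochberg adjustment, 3 of 9 members were called at an adjusted p under 0.05, where 25.9% of all genes were called, so the members' share was near that of the array. Of these, 2 were higher (all genes 13.3%) and 1 was lower (all genes 12.6%). The median difference was 0.26 over the 9 members and -0.035 over all genes. The groups did not overlap for 7 of 9 members, 5 above and 2 below. Over all genes they did not overlap for 45.9%, with 22.7% above and 23.1% below. All 9 passed the filter on dim probes (well above background on every array of at least 1 group). Crym did so through the knock-in group alone, where it is the higher, so its call had to lean one way. In lens RNA, fewer cells of a type and less RNA per cell cannot be told apart.

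**Figure D1:**
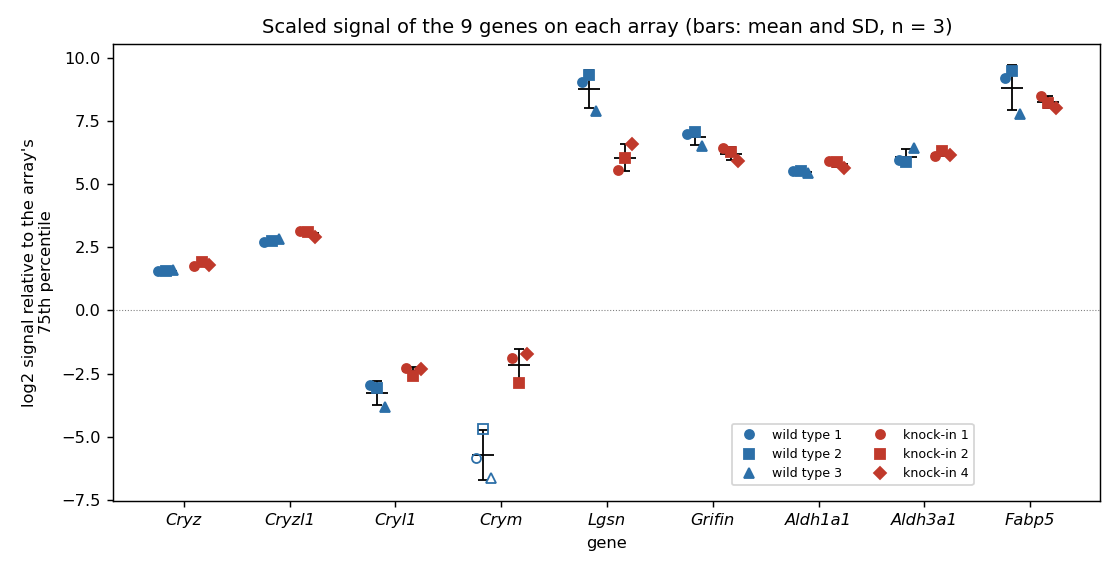
Log2 signal scaled to each array's 75th percentile (vertical axis) for the 9 genes (horizontal axis), with 1 point per array, blue for wild type and red for knock-in, and black bars for the mean and SD (n = 3); open points mark a group with no array well above background. The Lgsn points of knock-in (5.54 to 6.58) lie below those of wild type (7.90 to 9.33), the Crym points of knock-in lie above, and the Fabp5 and Aldh3a1 points overlap; levels of different probes cannot be set against each other.

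Lgsn encodes lengsin, a protein of the glutamine synthetase fold that has lost the enzyme activity and is made in differentiating lens fibre cells, where it is associated with the cytoskeleton. Its log2 signal was 5.54, 6.01 and 6.58 in the knock-in and 9.06, 9.33 and 7.90 in the wild type group. The groups did not overlap, and the lowest wild type value was that of array 3. The means were 6.05 ± 0.52 (SD, n = 3) and 8.76 ± 0.76 (SD, n = 3). Lgsn fell by 2.71 on the log2 scale (SE 0.42, 95% confidence interval -3.71 to -1.72, limma adjusted p = 0.0051). The call held when each array was left out in turn (differences from -3.15 to -2.43). With scan as a random block the difference was -2.58 and did not pass (adjusted p = 0.0682). Of the 11 lens fibre markers, 5 were also called lower and 0 higher, and their part in the Lgsn difference was not tested.

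Before scaling, Lgsn had an intensity of 7812, 12981 and 18059 in the knock-in and 75783, 77080 and 166611 in the wild type group. The 3 unscaled knock-in values were thus below all 3 wild type values too, and array 3 was the highest in place of the lowest of its group. On array 3 the Lgsn signal was 87.5% of that of the brightest probe, against 54.3% and 54.8% on the other wild type arrays and 8.1% to 21.4% on the knock-in arrays. No spot of a member carried a saturation flag.

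Fabp5, a carrier of long-chain fatty acids in the cytosol, is another bright probe of the lens. Its log2 signal was 8.49, 8.2 and 8.03 in the knock-in and 9.19, 9.47 and 7.79 in the wild type group. Wild type arrays 1 and 2 lay above all knock-in arrays and array 3 below them, so the groups overlapped. The means were 8.24 ± 0.23 (SD, n = 3) and 8.82 ± 0.90 (SD, n = 3). The difference of -0.58 (SE 0.43, 95% confidence interval -1.59 to 0.43, limma adjusted p = 0.355) did not pass. The value depended on single wild type arrays and on the scaling. Without array 3 the difference was -1.09 (adjusted p = 0.00601), and with scan day as a block, where array 3 stands alone on its day, it was also -1.09 (adjusted p = 0.00559). Without wild type array 2 it was -0.25 (adjusted p = 0.725), without wild type array 1 it was -0.39 (adjusted p = 0.626), after quantile normalization -0.13 (adjusted p = 0.568) and after normexp -0.29 (adjusted p = 0.651). The unscaled intensities were 49029 to 60013 in knock-in and 83198 to 154292 in wild type lenses, without overlap. Unscaled signals also carry the brightness of the array: wild type array 3 was the brightest array, and after scaling its Fabp5 signal was the lowest. Fabp5 has processed pseudogenes in the mouse, and whether the probe also binds their transcripts was not tested.

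Grifin, a relative of galectins that does not bind sugar and lies between lens fibres, had a log2 signal of 6.42, 6.28 and 5.91 in the knock-in and of 6.97, 7.07 and 6.50 in the wild type group. All knock-in values were below all wild type values, the nearest being 6.42 on knock-in array 1 and 6.50 on wild type array 3. The means were 6.20 ± 0.26 (SD, n = 3) and 6.85 ± 0.30 (SD, n = 3). The difference of -0.64 (SE 0.22, 95% confidence interval -1.17 to -0.12, limma adjusted p = 0.0731) did not pass over all genes. It passed without wild type array 3 (-0.82, adjusted p = 0.0159) and after normexp background correction (-0.83, adjusted p = 0.029). Scan day as a block gave the same difference as leaving out array 3 (-0.82, adjusted p = 0.0151). Array 3 stands alone on its day, so that block sets it aside and is no separate result. After quantile normalization it was -0.29 (adjusted p = 0.224).

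The fitted differences of Lgsn, Fabp5 and Grifin were -2.71, -0.58 and -0.64. A ratio of probes within an array does not depend on how the array was scaled, and such ratios, chosen after the values were seen, are given as a description with no test. Lgsn over Fabp5 was -2.94, -2.19 and -1.44 (log2) in the knock-in and -0.13, -0.15 and 0.11 in the wild type group. Lgsn over Grifin was -0.87, -0.27 and 0.68 in the knock-in and 2.09, 2.26 and 1.39 in the wild type group. In both ratios all knock-in values were below all wild type values, as the Lgsn values themselves were. Wild type array 3 stood apart in the ratio over Grifin, and on it Lgsn and Fabp5 were at 87.5% and 81.0% of the brightest probe. Fabp5 over Grifin was 1.92 to 2.12 in knock-in and 1.28 to 2.41 in wild type lenses, with overlap.

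**Figure D2:**
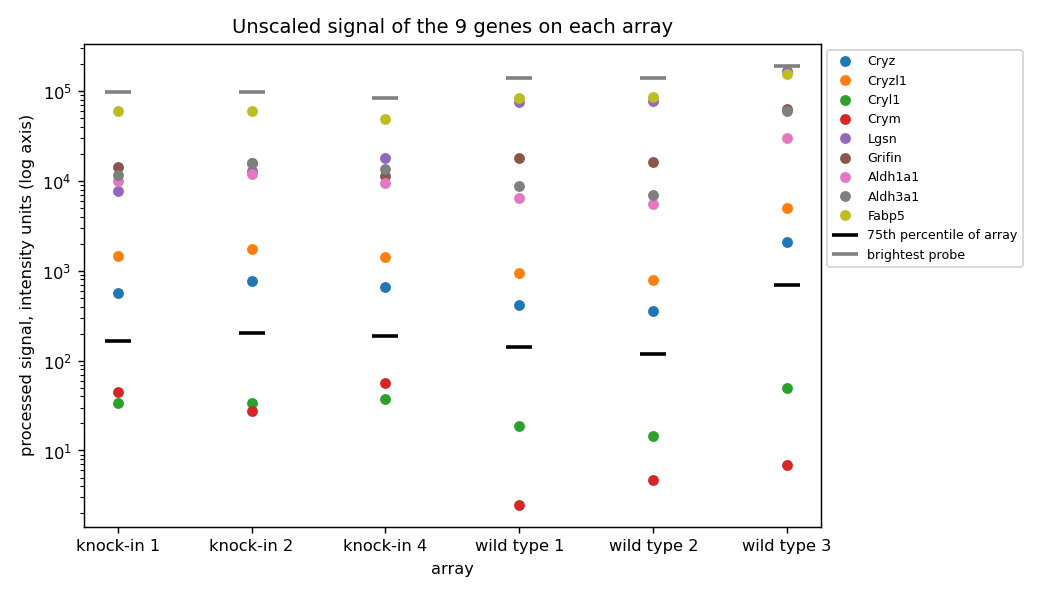
Processed signal in intensity units before scaling (vertical axis, log scale) of the 9 genes on each array (horizontal axis), with 1 coloured point per gene; black bars mark the 75th percentile of the array and grey bars its brightest probe. Wild type array 3 has the highest percentile, 698 against 120 to 201, and the highest signal of every gene but Crym. Crym is at 6.97 on that array and at 27.3 to 57.1 on the knock-in arrays. On wild type array 3, Lgsn (166611) and Fabp5 (154292) lie close to the brightest probe.

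Crym encodes μ-crystallin, a ketimine reductase that also binds thyroid hormone in the cytosol. Its log2 signal was -1.89, -2.88 and -1.72 in the knock-in group, all well above background. In the wild type group it was -5.84, -4.68 and -6.65, on no array well above background. The groups lay far apart, and the wild type level is only a bound. Each wild type array was counted at its own Crym signal or at its dimmest detected probe, whichever is the greater. On this count Crym was 3.69-fold higher in the knock-in group. Undetected probes can lie above the dimmest detected probe, so this value is not a strict lower limit. After normexp background correction the Crym difference was 1.01 on the log2 scale. The limma adjusted p without that correction was 0.00421. The measured means were -2.16 ± 0.63 (SD, n = 3) and -5.72 ± 0.99 (SD, n = 3). The signal was dim also in knock-in lenses, at 27.3 to 57.1 intensity units.

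Crym passed the filter on dim probes only through the group in which it is high. Its call above and the calls below thus had to lean one way and are given as a description. Without the filter the adjusted p was 0.0136, and on leaving out each array it ran from 0.00194 to 0.0263. The call was lost with scan as a random block (adjusted p = 0.0562) and after normexp background correction with an offset of 50 (adjusted p = 0.20). That offset shrinks log2 differences of dim probes such as that of Crym. Crym is also expressed in the retina, whose markers summed to 1.27 to 18.2 on the knock-in arrays and to 0.43 to 0.70 on the wild type arrays. The part of retinal RNA in the Crym difference was not tested.

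Cryl1, λ-crystallin, is the L-gulonate dehydrogenase of the glucuronate pathway. Its log2 signal was -2.29, -2.58 and -2.32 in the knock-in and -2.94, -3.05 and -3.82 in the wild type group. The groups did not overlap, and array 3 was the lowest. Cryl1 rose by 0.87 on the log2 scale (SE 0.26, 95% confidence interval 0.26 to 1.48, limma adjusted p = 0.0468), from a mean of -3.27 ± 0.48 to -2.40 ± 0.16 (SD, n = 3 each). The call lay close to the threshold. It was lost without knock-in array 1, knock-in array 2, knock-in array 4, wild type array 1 or wild type array 2 (adjusted p from 0.0619 to 0.126), while without wild type array 3 the difference was 0.60 (adjusted p = 0.0212). It was also lost with scan as a random block (adjusted p = 0.196), without the filter on dim probes (adjusted p = 0.112), with normexp (0.38, adjusted p = 0.586) and when each of 21073 probes was tested on its own (adjusted p = 0.051), a test that called 23.6% of probes. The signal was dim, between 14.5 and 49.5 intensity units. The offset of 50 added with normexp shrinks log2 differences of such dim probes, so the call lost there cannot tell whether Cryl1 differs.

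Cryz, ζ-crystallin, is a quinone reductase that uses NADPH. Its log2 signal was 1.75, 1.93 and 1.81 in the knock-in and 1.55, 1.57 and 1.59 in the wild type group. Every knock-in value was above every wild type value, but by a small margin. The difference of 0.26 (SE 0.14, 95% confidence interval -0.078 to 0.60, limma adjusted p = 0.221) did not pass, and it lay between 0.21 and 0.31 over 17 alternative settings.

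Cryzl1 encodes a relative of ζ-crystallin of the same reductase family. Its brighter probe had a log2 signal of 3.14, 3.11 and 2.91 in the knock-in and of 2.72, 2.73 and 2.84 in the wild type group. The groups were separate by a narrow gap between knock-in array 4 and wild type array 3. The difference of 0.29 (SE 0.15, 95% confidence interval -0.066 to 0.64, limma adjusted p = 0.198) did not pass. The other probe ranged from 0.53 to 1.30 in knock-in and from 0.56 to 0.91 in wild type lenses, with overlap, and its difference was 0.22 (adjusted p = 0.538 over all probes).

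Aldh1a1, the homologue of η-crystallin, is an aldehyde dehydrogenase that oxidises retinaldehyde to retinoic acid. Its log2 signal was 5.91, 5.88 and 5.65 in the knock-in and 5.52, 5.54 and 5.42 in the wild type group. The groups did not overlap. The difference of 0.32 (SE 0.15, 95% confidence interval -0.043 to 0.68, limma adjusted p = 0.168) did not pass, and after quantile normalization it was 0.66 (adjusted p = 0.0156). Without knock-in array 4, the array with retina markers, it was 0.40 (adjusted p = 0.143). The close copy Aldh1a7, whose transcript may bind the same probe, differed by 0.10 (adjusted p = 0.70).

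Aldh3a1 removes aldehydes formed by ultraviolet light and lipid peroxidation and is the main soluble protein of the mouse cornea. Its brighter probe had a log2 signal of 6.13, 6.32 and 6.16 in the knock-in and 5.94, 5.86 and 6.44 in the wild type group. Wild type array 3 lay above every knock-in array and the rest of the wild type arrays below. The difference of 0.12 (SE 0.20, 95% confidence interval -0.35 to 0.59, limma adjusted p = 0.692) did not pass, and that of the other probe was 0.17. After normexp the sign turned, to -0.023 (adjusted p = 0.975). Krt12, the keratin that defines corneal epithelium, was not well above background on any array, nor was Dsg1a. Krt5 and Krt15 were well above background on all 6 arrays, and Krt14 on 1 knock-in and 2 wild type arrays. Krt15 differed by 1.39 and Krt5 by 0.48, and neither passed (limma adjusted p = 0.113 and 0.565). The 6 cornea and surface epithelium markers on the arrays summed to 37.1 to 46.6 in knock-in and 43.1 to 53.7 in wild type lenses, mostly from Tkt, a transketolase.

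**Figure D3:**
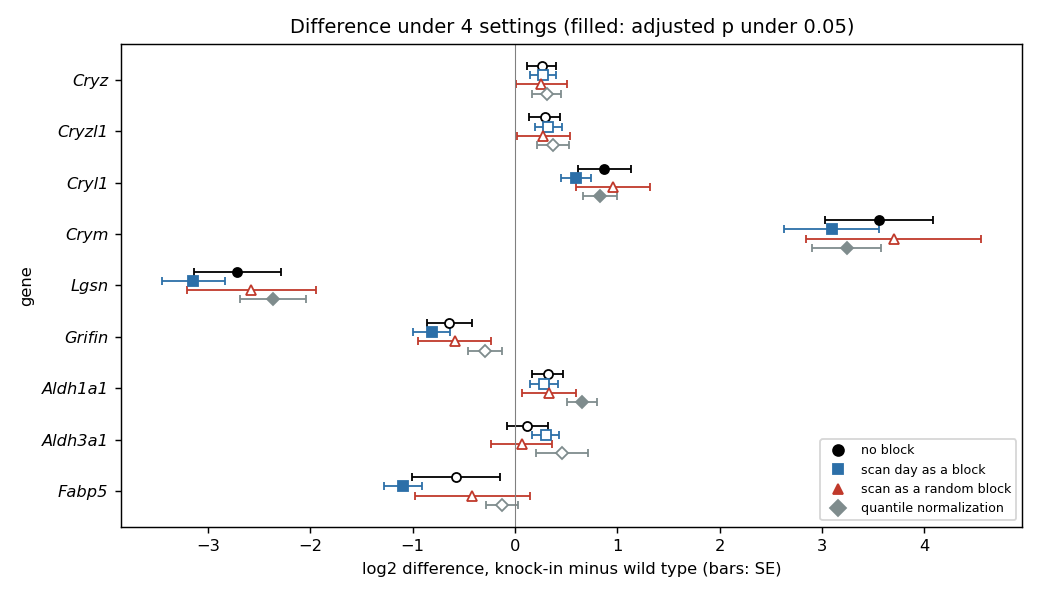
Log2 difference, knock-in minus wild type (horizontal axis), of the 9 genes (vertical axis) with SE bars, fitted without a block, with scan day as a block, with scan as a random block and after quantile normalization; filled symbols have an adjusted p under 0.05. Lgsn lies left of -2 under all 4 settings, and the Crym points are fitted against background in wild type and give no size. No gene is filled with scan as a random block, and Grifin and Fabp5 are filled with scan day as a block.

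Across settings, the members' directions were more stable than their calls. With scan as a random block 0 of 9 members were called, where 4.85% of all genes were. With scan day as a block 5 of 9 were called, Crym and Cryl1 higher and Lgsn, Grifin and Fabp5 lower, where 43.5% of all genes were. Wild type array 3 is the only array of its day. This block therefore sets that array aside, gives the same differences as leaving it out, and cannot correct the other arrays for scan day. The signs of the 9 differences (6 positive, 3 negative) were the same with median scaling and quantile normalization as with the 75th percentile. Of all genes called, 51.3% were higher in knock-in lenses, against 41.3% with median scaling.

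The enzymes and binding proteins that work beside the members were taken from 9 lists holding 103 genes, of which 83 were measured and 23 called, 15 higher and 8 lower, a share near the 25.9% of all genes (13.3% higher, 12.6% lower). These lists were chosen with earlier results of these data known, so neither their counts nor the values of their genes are independent support. The directions of the 23 genes were the same under every alternative that could be fitted to them. With scan as a random block, where 4.85% of all genes were called, 9 of them were called: Ptgr1, Dcxr, Sord, Asns, Lgals3, Fabp3, Aldh18a1, Aldh1a3 and Cyp26a1. The other 14 were not. As no scan held both genotypes, this block cannot separate a scan effect from the genotype for any of them.

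Among the mouse genes of other recruited crystallins, 0 of the 5 genes Ldha, Ldhb, Eno1, Asl and Gapdh were called by limma, with differences from -0.11 for Asl to 0.21 for Ldha. Over all genes 25.9% were called, and 5 genes are too few to set a count of 0 apart from that share. Ldhb, the lactate dehydrogenase subunit that serves as ε-crystallin in ducks, differed by 0.0047 (SE 0.30).

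Around Cryz, 2 of 10 quinone and medium-chain reductases rose and none fell. Ptgr1, a prostaglandin reductase, rose by 2.19 (SE 0.17, adjusted p = 0.000398). Cbr3, a carbonyl reductase, rose by 0.98 (SE 0.28, adjusted p = 0.0433), a call lost without knock-in array 1, 2 or 4 or wild type array 1 (adjusted p from 0.0817 to 0.123) and with scan as a random block (adjusted p = 0.215). In the glucuronate and polyol pathway of Cryl1, 1 of 8 rose and 3 fell. Dcxr, which reduces L-xylulose further along the same pathway, rose by 2.76 (SE 0.31, adjusted p = 0.00136). Sord, sorbitol dehydrogenase, fell by 1.32 (SE 0.14, adjusted p = 0.00118), and Xylb, xylulokinase, by 1.21 (SE 0.23, adjusted p = 0.0101). Khk, ketohexokinase, chosen for mention with its value in view, fell by 0.89 (adjusted p = 0.0137), a call lost without knock-in array 2 (adjusted p = 0.0708). The adjusted p of Xylb was 0.148 and that of Khk 0.136 with scan as a random block.

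For the thyroid hormone pathway that Crym touches, 1 of 6 measured genes rose, Klf9, a transcription factor induced by the hormone, by 1.30 (SE 0.25, adjusted p = 0.0112, and 0.113 with scan as a random block). The receptors Thra and Thrb differed by -0.55 and -0.45 and did not pass. Of 8 genes of glutamine synthesis and use, the reaction of the enzyme family from which lengsin derives, 2 rose and 1 fell. Asns, asparagine synthetase, rose by 6.24 (SE 0.39, adjusted p = 0.000197), Glud1, glutamate dehydrogenase, rose by 0.66 (adjusted p = 0.0159), and Gls2, a glutaminase, fell by 1.34 (adjusted p = 0.0125). The Glud1 call was lost without knock-in array 2 or wild type array 1 or 2 (adjusted p from 0.0739 to 0.0843) and that of Gls2 without knock-in array 2 (adjusted p = 0.0577). Both were lost with scan as a random block (adjusted p = 0.185 for Glud1 and 0.11 for Gls2). Gls2 was well above background on 2 of the knock-in arrays, so its size is set partly against background. Glul, glutamine synthetase itself, differed by 0.97 (SE 0.30, adjusted p = 0.0554) and did not pass.

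Among the galectins, the family of Grifin, 2 of 5 rose and 1 fell. Lgals3 rose by 1.29 (SE 0.15, adjusted p = 0.00145) and Lgals8 by 1.04 (SE 0.15, adjusted p = 0.00421), while Lgals1 fell by 1.03 (SE 0.20, adjusted p = 0.0117). The Lgals1 call was lost without knock-in array 2 (adjusted p = 0.0602). Lgals8 and Lgals1 did not pass with scan as a random block (adjusted p = 0.0741 and 0.174). Among fatty acid binding and PPAR genes, 2 of 12 rose and 1 fell. Fabp3, the muscle-type relative of Fabp5, rose by 2.62 (SE 0.17, adjusted p = 0.000197) and Acsl5, an acyl-CoA synthetase, by 1.90 (SE 0.33, adjusted p = 0.00716). The nuclear receptor gene Pparg fell by 0.70 (adjusted p = 0.0496), a call lost on leaving out any array but wild type 3 (adjusted p from 0.0663 to 0.177). Acsl5 and Pparg did not pass with scan as a random block (adjusted p = 0.132 and 0.32).

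Of 16 further aldehyde dehydrogenases, 1 rose and 1 fell. Aldh18a1, which starts proline synthesis, rose by 1.85 (SE 0.21, adjusted p = 0.00146). Aldh1a3, like Aldh1a1 a retinaldehyde dehydrogenase, fell by 2.24 (SE 0.22, adjusted p = 0.000789), and was well above background on 2 of the knock-in arrays, so that the size is set partly against background. Of 13 retinoid genes, 4 rose and 1 fell. Cyp26a1, which degrades retinoic acid, rose by 2.34 (SE 0.29, adjusted p = 0.00216), Stra6, a retinol transporter, by 2.08 (SE 0.32, adjusted p = 0.00475) and Rdh10, which makes retinaldehyde, by 1.76 (SE 0.32, adjusted p = 0.00906). Stra6 was well above background on 2 of the wild type arrays. Dhrs3, a retinaldehyde reductase, and the receptor gene Rxra were named after their values were seen, at 0.96 (adjusted p = 0.00925) and -1.12 (adjusted p = 0.0476). The Dhrs3 call was lost without wild type array 1 (adjusted p = 0.0504) and that of Rxra on leaving out any array but wild type 3 (adjusted p from 0.0627 to 0.156). Rxra was well above background on 1 of the knock-in arrays, so its size is set mostly against background. With scan as a random block the adjusted p was 0.0829 for Stra6, 0.162 for Rdh10, 0.111 for Dhrs3 and 0.316 for Rxra.

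**Figure D4:**
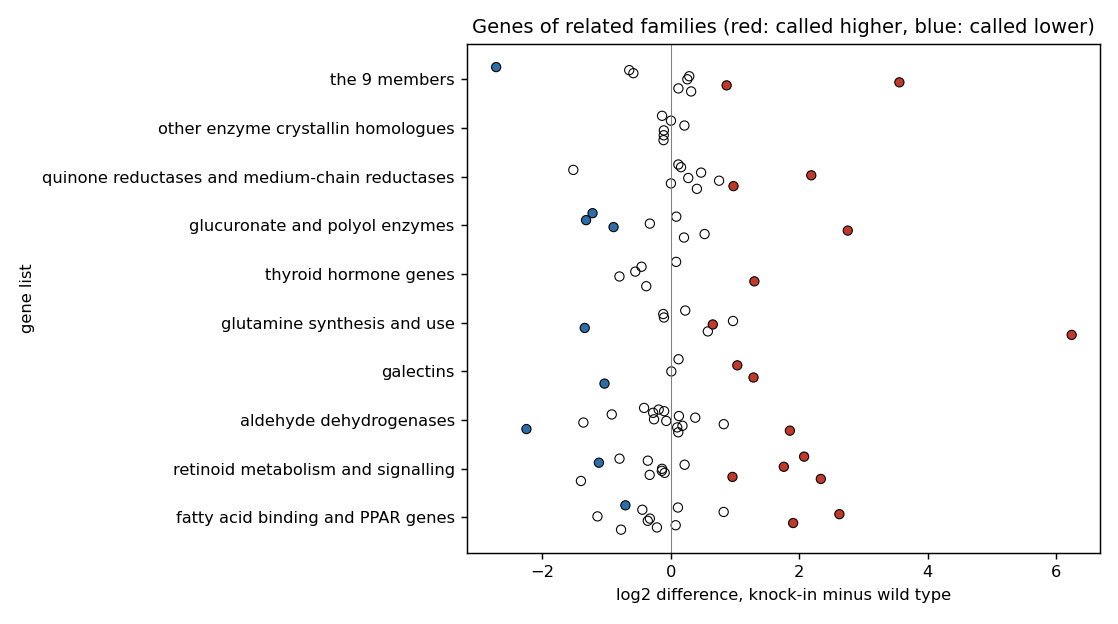
Log2 difference, knock-in minus wild type (horizontal axis), of each measured gene of the 9 members and of 9 lists of related genes (vertical axis); red points were called higher, blue points lower and open points did not pass (limma, adjusted p under 0.05). The list of other enzyme crystallin homologues has no filled point, and the point farthest to the right is Asns at 6.24.

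By their profile over the 6 arrays, the genes most like Lgsn were Trim3, Frem2 and Trex1 (Pearson r = 0.9997, 0.997 and 0.997). Those most like Crym were Cntn1, Pvr and Pmaip1 (r = 0.995, 0.993 and 0.99), and those most like Cryl1 were 4933412E12Rik, Ier3 and Zfp488 (r = 0.998, 0.997 and 0.996). Those most like Grifin were AF067063, Prss37 and Pcp4, and those most like Fabp5 were Gm13304, Rps27a and Atp2b4 (r from 0.996 to 0.998). Cryz was most like Gramd1a, Fkbp10 and Stard5, Cryzl1 most like Cyc1, Npc2 and Ddah1, Aldh1a1 most like Slc25a5, Pax6os1 and Pfdn1, and Aldh3a1 most like Sumf2, Rad1 and Pik3r2. With 6 arrays such values are common: between 68 (Aldh3a1) and 422 (Fabp5) genes reached an r above 0.95 with a given member, and the arrays share their genotype contrast and scans.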

How the data were processed

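Per the file headers, the deposited files hold spot intensities of single-colour (Cy3) Agilent arrays read with Feature Extraction 11.0.1.1, whose processed signal has the background subtracted. Version 9.1 stands in the submitters' processing notes. How the authors scaled arrays against each other is not stated there. The log2 of the processed intensity was taken, the 75th percentile of each array over 43020 non-control spots was subtracted, outlier-flagged spots were dropped, and replicate spots averaged. A probe was kept if it was well above background on all arrays of at least 1 group (21073 of 39429 probes). Gene symbols came from matching the probes' unversioned RefSeq accessions to a GRCm38.p6 table. The array design refers to mm9, so no coordinates of probes are given. For each of 12783 genes its brightest kept probe by mean was fitted with limma 3.58.1 in R 4.3.3 (residual degrees of freedom: 4). Benjamini-Hochberg adjustment ran over all genes, which were called at an adjusted p under 0.05. The precision is limited by the number of arrays. The procedure was tested on simulated data. Alternatives covered scaling, background (normexp planned on mean signals and run on median signals), filters, flags, probe choice, scan, scan day, replicate number and leaving out each array. Named are all members, up to 3 called genes per list with the smallest p and the 3 genes most alike in profile. The members and lists were chosen with earlier results of these data known. The arrays of a group were not identical, correlating at 0.953 to 0.996 over genes. Of the lists, 2 genes are not reported here by name.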

Additional observations from a re-analysis of the deposited data

How the results depend on the processing

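The counts of called members and of called genes depended on the processing, while of 152 alternative values of single members 131 kept their direction and side of the threshold, 12 lost the call, 8 gained it and 1 turned its sign (Aldh3a1, to -0.023 with normexp). Of the members, 2 were called higher and 1 lower, and 3310 genes in all. With normexp the counts were 0 higher, 2 lower and 1433 genes. Without the filter on dim probes they were 1 higher and 2002 genes. With probes well above background on all arrays, which leaves out Crym, and with every probe tested on its own, 1 member was higher. With scan day as a block, which sets wild type array 3 aside, 3 were lower and 5564 genes were called. With scan as a random block (consensus correlation 0.564) 0 were higher, 0 lower and 620 genes were called. Leaving out 1 array gave 1 to 2 members higher, 1 to 3 lower and 1538 to 5661 genes, the count of 5661 being without wild type array 3 and that of 1538 without knock-in array 2. The replicate block, which pairs arrays of the same number, gave 3 members lower and 5446 genes. Only numbers 1 and 2 are shared. The deviations of same-numbered arrays correlated at 0.17 and -0.22 over genes. Those of knock-in 1 with wild type 2 correlated at 0.22, and those of knock-in 2 with wild type 1 at -0.18. Each knock-in array thus correlated alike with both wild type arrays, so these values cannot show whether same-numbered arrays were paired. The remaining settings (median scaling, quantile normalization, flagged spots kept, mean of a gene's probes) kept the counts within 1.5 times. Signal over background limits Crym and Cryl1, the dimmest members.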
